A study of Mus musculus with 12 samples.

Results

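Among 12 MC38/hPD-L1 tumors, 4 had high levels of the fat cell gene Adipoq and 8 did not. The tumors were divided by the level of Adipoq, which encodes the adipocyte hormone adiponectin, at a limit of 50 TPM (counts corrected for gene length and scaled to the total of the tumor). The 4 Adipoq-high tumors were Fc control replicate 4 at 69.8 TPM, ALPN-202 replicate 4 at 97.5, and replicates 2 and 4 of the anti-PD-L1 arm at 667.9 and 144.6. The 8 Adipoq-low tumors lay between 0.917 and 8.11 TPM, with a median of 5.23. No tumor fell between 8.11 and 69.8 TPM, the values just outside and just inside the limit. Because the tumors were chosen by this measured value, every difference between the classes is given as a description, without a p-value.

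MC38 is a mouse colon carcinoma line, here carrying human PD-L1 and grown under the skin of the flank of female C57BL/6NJ mice, 8 to 10 weeks of age. ALPN-202 is an engineered CD80 domain fused to Fc that blocks PD-L1 and costimulates through CD28, and anti-PD-L1 was the antibody durvalumab. Each mouse had 1 intraperitoneal injection on day 8, of 75 µg Fc control protein, 100 µg ALPN-202 or 100 µg anti-PD-L1, and bulk RNA came from its tumor 72 h later, with 4 tumors in each arm. The Adipoq-high tumors numbered 1 of 4 in the Fc control arm, 1 of 4 in the ALPN-202 arm and 2 of 4 in the anti-PD-L1 arm. The labels give no source of the fat, and in bulk RNA fewer cells of a type cannot be told apart from less RNA per cell.

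White adipocytes store triglyceride in 1 large droplet coated by perilipin 1, take up fatty acids released by lipoprotein lipase, make new fatty acids under insulin and release them again by lipolysis under adrenergic control. They also secrete hormones such as adiponectin, leptin and adipsin. In female mice, subcutaneous white fat surrounds the mammary ducts, whose luminal cells are marked by keratins 8, 18 and 19 and whose outer cells are marked by keratins 5 and 14.

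Total counts were 3988266 to 10692817 per tumor. The library of ALPN-202 replicate 4, an Adipoq-high tumor and the shallowest, stood apart together with that of Fc control replicate 1, an Adipoq-low tumor. In both, short genes were high (median log2 deviation 1.30 and 0.87) and long genes low (-1.01 and -0.98), and ribosomal protein genes took 5.34% and 3.27% of counts, against 1.29% to 1.86% in the other 10. In the ALPN-202 arm this trend cannot be told apart from the Adipoq class, since 1 tumor carries both, so results are also given without that tumor.

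Of 14142 genes tested, 133 (0.94%) were higher in Adipoq-high tumors and 5 (0.0354%) were lower. A gene was counted as higher where its log2 difference, fitted with treatment as a covariate, was at least 1 and every Adipoq-high tumor lay above every Adipoq-low tumor of its own arm, and as lower in the reverse case. Without ALPN-202 replicate 4 the counts were 434 and 26, and the 434 held 130 of the 133 genes. The counts were 267 and 65 without Fc control replicate 4, 219 and 17 without Fc control replicate 1, and 123 and 38 without anti-PD-L1 replicate 2. With fewer tumors the demand on overlap is more easily met. With the length trend removed by offsets in the fit of all 12 tumors, 135 genes were higher and 6 lower.

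Apart from Adipoq, 132 genes were counted higher. Of these, 33 belonged to adipocyte lists, 14 to the list of luminal gland epithelium, 5 to an immune list and 78 to no list. Anti-PD-L1 replicate 2 had the highest value for 122 of the 132. Only 63 of the 132 passed the filter on low counts in Adipoq-low tumors alone, so the other genes entered the table through the tumors in which they were high.

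The coat protein of the fat droplet and the keratins of simple epithelium moved with Adipoq in all 3 arms. Plin1, encoding perilipin 1, was at 21.7 CPM (counts scaled to library size, normalized by TMM) in Fc control replicate 4, 9.80 in ALPN-202 replicate 4, and 227 and 35.3 in anti-PD-L1 replicates 2 and 4, against 0.231 to 2.69 (median 1.07) in the 8 Adipoq-low tumors. Krt18 was at 18.4, 15.7, 238 and 43.5 CPM in the same order, against 0 to 0.836 (median 0.119). The classes did not overlap in either gene, with log2 differences of 5.08 ± 0.88 for Plin1 and 7.23 ± 0.84 for Krt18 (fitted ± SE, 4 against 8 tumors). Krt8, whose product pairs with keratin 18, was at 12.1, 14.0, 174 and 30.8 CPM against 0 to 0.688, a log2 difference of 7.60 ± 0.89. As ratios of CPM not corrected for length, Krt8 stood at 0.656, 0.896, 0.729 and 0.710 times Krt18 in the Adipoq-high tumors. Adipoq stood at 2.17, 7.23, 1.64 and 1.70 times Krt18, highest in ALPN-202 replicate 4, and Plin1 at 1.18, 0.625, 0.953 and 0.812 times, lowest in that tumor. The fat genes thus did not keep a single ratio to the keratin in the tumor with the length trend.

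**Figure D1:**
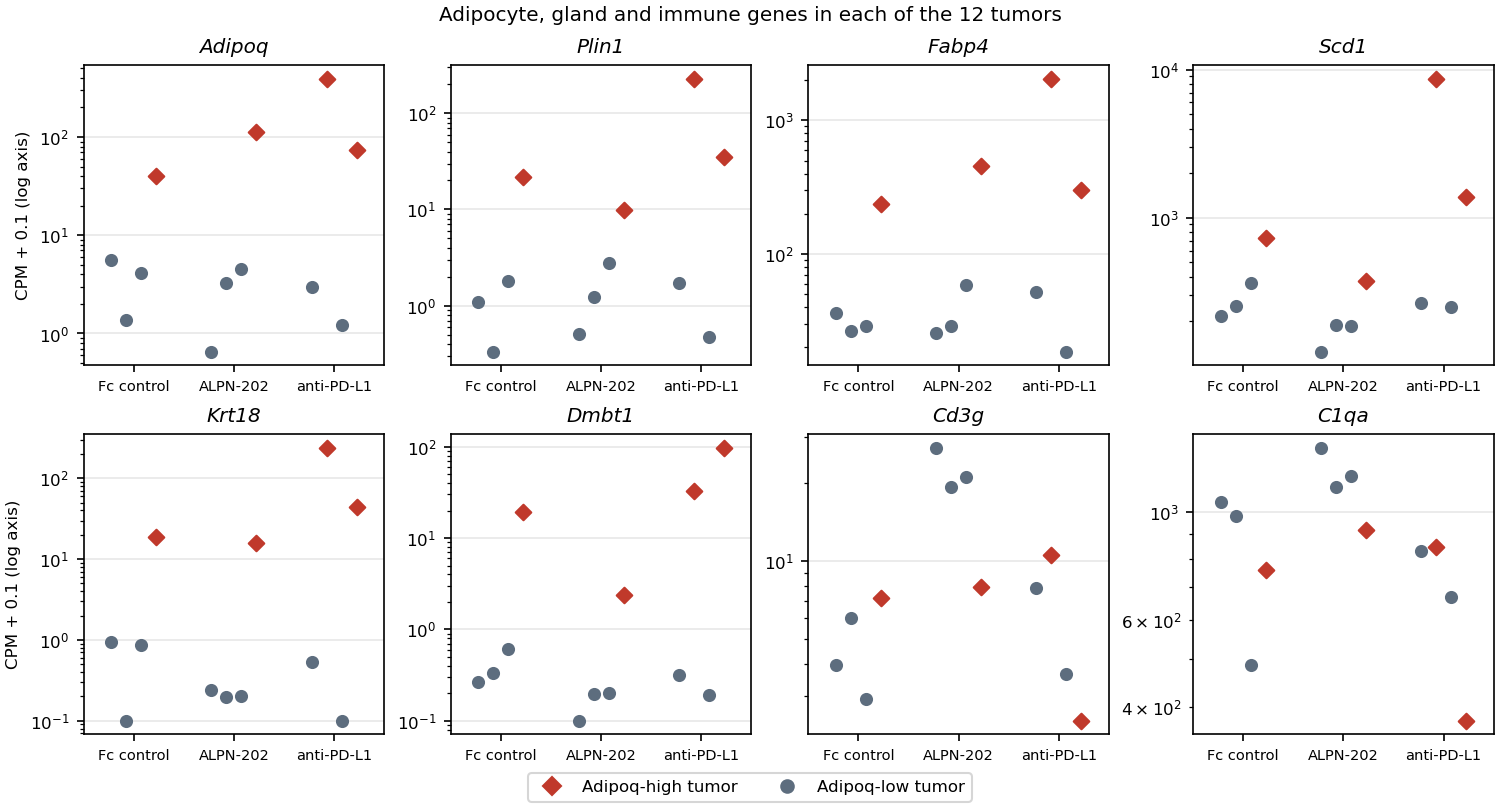
CPM plus 0.1, on a log axis, of 8 genes in each of the 12 tumors by arm. Red diamonds are the 4 Adipoq-high tumors and grey circles the 8 Adipoq-low tumors. Adipoq, Plin1, Fabp4, Scd1, Krt18 and Dmbt1 are higher in every red point than in every grey point of the same arm, whereas Cd3g and C1qa overlap.

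On build NCBIM37, which the files use, Adipoq lies on chromosome 16 (23146609 to 23158101, plus strand), Plin1 on chromosome 7 (86866050 to 86877662, minus strand), and Krt8 and Krt18 near each other on chromosome 15 (101827142 to 101834773, minus strand, and 101858647 to 101862457, plus strand). Their promoters are shown because these 4 genes mark the fat and the gland signal that moved together. The sequences are from RefSeq (build GRCm38.p6) and run 5′ to 3′ from 250 bases before the start to 50 bases after it, at chr16:23146286-23146585 (plus strand), chr7:79732727-79733026 (minus strand), chr15:102004293-102004592 (minus strand) and chr15:102027966-102028265 (plus strand).
Adipoq: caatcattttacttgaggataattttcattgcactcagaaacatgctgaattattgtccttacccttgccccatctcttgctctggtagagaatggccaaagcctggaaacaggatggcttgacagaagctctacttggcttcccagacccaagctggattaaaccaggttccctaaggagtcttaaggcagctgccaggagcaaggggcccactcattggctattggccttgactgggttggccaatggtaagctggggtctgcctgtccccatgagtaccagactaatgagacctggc
Plin1: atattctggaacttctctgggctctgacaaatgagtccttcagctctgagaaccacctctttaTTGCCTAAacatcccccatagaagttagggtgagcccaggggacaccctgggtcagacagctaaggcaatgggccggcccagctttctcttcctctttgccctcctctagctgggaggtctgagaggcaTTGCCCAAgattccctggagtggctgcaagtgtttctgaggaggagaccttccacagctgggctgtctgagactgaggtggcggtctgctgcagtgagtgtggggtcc
Krt8: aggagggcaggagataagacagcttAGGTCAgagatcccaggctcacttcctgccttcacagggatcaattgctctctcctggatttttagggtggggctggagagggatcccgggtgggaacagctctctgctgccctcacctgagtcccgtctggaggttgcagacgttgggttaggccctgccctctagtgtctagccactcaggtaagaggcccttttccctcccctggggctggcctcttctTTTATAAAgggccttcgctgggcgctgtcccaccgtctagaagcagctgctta
Krt18: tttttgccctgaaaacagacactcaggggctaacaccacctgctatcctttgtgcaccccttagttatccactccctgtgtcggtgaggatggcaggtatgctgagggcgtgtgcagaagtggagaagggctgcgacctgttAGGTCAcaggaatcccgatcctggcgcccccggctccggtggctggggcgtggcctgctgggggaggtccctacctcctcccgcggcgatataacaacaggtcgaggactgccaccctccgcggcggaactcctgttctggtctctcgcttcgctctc
Capitals mark matches, on either strand, to AGGTCA (a site of nuclear receptors), TTGCNNAA (a core of C/EBP sites) or TATAAA (the TATA box). Plin1 held TTGCNNAA at -187 and at -58, counted from the start, Krt8 held AGGTCA at -225 and TATAAA across the start, where the matches on both strands overlap, and Krt18 held AGGTCA at -108. No match was found in the Adipoq window, and none of the 4 held CCGCCC or the direct repeat of AGGTCA with a spacing of 1, a site of PPARγ with RXR, which contains AGGTCA. Among all 27025 promoters of the table, 16% held AGGTCA, 10.8% TTGCNNAA, 14.2% TATAAA and 35.9% CCGCCC, and 12 promoters held the repeat. Only 89 of the 133 genes counted higher had a promoter in the table, too few for a share over them, and that check is void.

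Secreted products of adipocytes were among the largest differences. Cfd, encoding adipsin, was at 473, 794, 2175 and 684 CPM in Fc control replicate 4, ALPN-202 replicate 4 and anti-PD-L1 replicates 2 and 4, against 7.83 to 36.1 (median 26.3) in Adipoq-low tumors, a log2 difference of 5.32 ± 0.57. Cfd was also detected in every Adipoq-low tumor. Retn, encoding resistin, was at 32.5, 30.7, 196 and 46.8 CPM against 0.280 to 1.46, and Lep, encoding leptin, at 4.74, 2.61, 55.7 and 4.53 CPM against 0 to 1.24. Rbp4, the retinol carrier, and Nnat, encoding neuronatin, were also counted higher (4.13 ± 0.78 and 6.50 ± 0.86). Angptl4 and Apln were not (0.70 ± 0.34 and -0.04 ± 0.16). Of 12 genes listed, 8 were tested and 6 were counted higher (0.94% over all genes tested), Adipoq, which the division fixed, among them. Only 4 of the 8 passed the filter in Adipoq-low tumors alone, so no median is given.

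Droplet proteins of white fat were higher, and those shared by other cells were not. Plin4 (4.21 ± 0.74), Cidec (5.07 ± 0.68), which enlarges droplets by fusion, and G0s2 (3.63 ± 0.60), an inhibitor of adipose triglyceride lipase, were counted higher with Plin1. Cidec was at 44.7, 61.7, 334 and 57.4 CPM in the Adipoq-high tumors against 0.825 to 8.08. Plin2, which coats droplets in most cell types, was at 454, 499, 466 and 367 CPM against 360 to 584, and the classes overlapped. The caveola genes Cav1 and Ptrf, abundant in fat and in many stromal cells, were at log2 differences of -0.06 ± 0.19 and 0.18 ± 0.21. The list median was 0.51, and 4 of 12 tested genes were counted higher (0.94% over all genes tested).

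Of 9 tested genes for the uptake and binding of fatty acids, 3 were counted higher (0.94% over all genes tested), namely Lpl, Fabp4 and Cd36. The list median was 1.07, or 0.42 without ALPN-202 replicate 4 (0.03 and -0.005 over all genes tested). Lpl, encoding lipoprotein lipase, was at 108, 138, 913 and 161 CPM against 11.5 to 46.6 (median 19.7), and Fabp4, the fatty acid binding protein of adipocytes, at 235, 458, 2044 and 303 CPM against 18.4 to 58.8 (median 28.6). Their log2 differences were 3.54 ± 0.61 and 4.05 ± 0.56. Cd36, the fatty acid translocase, was counted higher at 2.05 ± 0.66, although Fc control replicate 4 (33.8 CPM) lay below the highest Adipoq-low tumor of another arm (64.2 CPM). Fabp5, the related binding protein of keratinocytes and macrophages, was at 57.0, 190, 61.8 and 65.9 CPM against 56.7 to 164. Its highest value was that of the library with the length trend, and its log2 difference was 0.17 ± 0.36, or -0.44 without it. Aqp7, the glycerol channel of adipocytes, was too low to test, at 18, 3, 168 and 26 counts in the Adipoq-high tumors and 6 counts in all Adipoq-low tumors together.

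For the synthesis of fatty acids, anti-PD-L1 replicate 2 stood far above the other 3 Adipoq-high tumors. Scd1, the stearoyl-CoA desaturase of fat and liver, was at 729, 373, 8660 and 1384 CPM against 124 to 361 (median 232), a log2 difference of 2.60 ± 0.68. Thrsp, a nuclear factor of lipogenesis, reached 360 CPM in anti-PD-L1 replicate 2, with 26.3, 18.3 and 68.6 CPM in the other Adipoq-high tumors and at most 2.32 in Adipoq-low tumors. Pnpla3 was counted higher at 5.17 ± 0.64. Fasn, fatty acid synthase, was at 816, 224, 3751 and 1403 CPM against 157 to 661, so ALPN-202 replicate 4 lay among the Adipoq-low tumors. Fasn, Acaca, Acly and Acacb were not counted higher. Without that tumor their log2 differences were 1.63, 1.34, 0.55 and 3.24, against 0.98, 0.83, 0.24 and 2.49 with it. Scd2, the isoform of most other tissues, was at 1250, 508, 888 and 1687 CPM against 483 to 1586, with a log2 difference of 0.03 ± 0.23. Mlxipl, encoding the glucose-responsive factor ChREBP, was not tested, with 52, 3, 357 and 94 counts in the Adipoq-high and 24 in all 8 Adipoq-low tumors.

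Genes that build and break down triglyceride were mixed. Pck1, which supplies glycerol 3-phosphate in fat, was at 34.8, 21.6, 752 and 95.1 CPM against 0.186 to 2.41, a log2 difference of 6.57 ± 1.10. Gpd1 was counted higher at 4.44 ± 0.79, and Dgat2 (2.59 ± 0.71) was not, since ALPN-202 replicate 4 (12.1 CPM) overlapped with Adipoq-low tumors of its arm. Adrb3, the β3-adrenergic receptor that triggers lipolysis in white and brown fat, was at 13.3, 8.16, 79.8 and 16.1 CPM against 0.0932 to 0.774, a log2 difference of 6.10 ± 0.71. The lactate receptor gene Gpr81 (5.15 ± 0.79), the carboxylesterase genes Ces1d (5.60 ± 0.79) and Ces1f (7.71 ± 0.77), and Mgll (2.70 ± 0.75), monoacylglycerol lipase, were counted higher with it. Ces1f was at 2.42, 4.25, 22.3 and 4.18 CPM against 0 to 0.0859 (median 0), so the size of its difference rests on values near 0. The lipase genes Lipe (65.4, 22.5, 368 and 73.7 CPM against 9.69 to 29.5) and Pnpla2 (107, 51.3, 534 and 102 CPM against 38.9 to 80.3) were above every Adipoq-low tumor in 3 of the 4 Adipoq-high tumors.

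Insulin-responsive glucose entry showed in 2 genes. Slc2a4, encoding GLUT4, was at 5.14, 2.94, 49.9 and 7.47 CPM against 0.462 to 2.19, and its partner Tusc5 at 6.86, 6.20, 62.7 and 11.2 against 0.167 to 4.09. The signalling genes Insr, Irs1, Irs2, Akt2 and Pik3r1, expressed in most cells, had log2 differences between -0.50 and 0.22, and the list median was 0.09. Among transcription factors only Klf15 was counted higher (2.89 ± 0.59). Pparg, the master regulator of adipocytes, was at 5.75, 4.25, 37.2 and 7.47 CPM against 0.945 to 6.68, so 2 of the 4 Adipoq-high tumors lay within the range of the Adipoq-low tumors. Cebpa, its partner in adipocytes, was at 44.4, 24.2, 200 and 43.6 CPM against 23.1 to 59.7, with 3 of the 4 within that range. Over tumors of all arms, Plin1, Cidec and Lep thus did not overlap between the classes, and Pparg and Cebpa did. Within their own arms, Fc control replicate 4 and anti-PD-L1 replicates 2 and 4 were above every Adipoq-low tumor for Pparg and Cebpa. ALPN-202 replicate 4, the library with the length trend, was below those of its arm for both. Without that tumor the log2 differences of Pparg and Cebpa were 2.24 and 1.53, against 1.56 and 0.85 with it.

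Markers of thermogenic fat were low. Ucp1, the uncoupling protein that defines brown and beige adipocytes, had 48 counts in anti-PD-L1 replicate 2 and at most 4 in any other tumor. Cidea, a droplet protein of brown and beige fat, was at 24.2 CPM in the same tumor, against 1.21, 0.327 and 1.16 in the other Adipoq-high tumors and 0 to 1.14 in Adipoq-low tumors. Cox8b was the only gene of the thermogenic list counted higher (3.43, 3.92, 25.9 and 4.09 CPM against 0.0932 to 1.67), and Prdm16 (0.23 ± 0.22) and Dio2 (-0.10 ± 0.16) were not. Among other adipocyte markers, 7 of 9 tested were counted higher (0.94% over all genes tested), led by Cyp2e1 (5.92 ± 0.91) and Adig (4.96 ± 0.74). Only 4 of the 9 passed the filter in Adipoq-low tumors alone, with a median of 2.83, and Cyp2e1 and Adig were not among them. Car3, carbonic anhydrase 3, was at 175, 92.1, 1632 and 288 CPM against 7.92 to 40.6. Over all adipocyte lists without Adipoq, 103 of 122 genes were tested. Of these, 33 were counted higher (0.94% over all genes tested) and 1, Aqp3, lower (0.0354%). The median log2 difference was 0.80 (1.11 without ALPN-202 replicate 4), or 0.55 over the 80 genes that passed the filter in Adipoq-low tumors alone. For the 33, the median log2 distance from the Adipoq-low median was 2.57 in Fc control replicate 4, 2.71 in ALPN-202 replicate 4, and 5.90 and 3.50 in replicates 2 and 4 of the anti-PD-L1 arm, and anti-PD-L1 replicate 2 was the highest for all 33. The 33 were picked for lying higher in every Adipoq-high tumor of an arm, so distances above 0 were largely fixed in advance. As a share of all counts, the adipocyte lists without Adipoq took 0.943%, 0.540%, 3.48% and 1.29%, against 0.448% to 0.771% in Adipoq-low tumors, so ALPN-202 replicate 4 was not higher by this sum.

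**Figure D2:**
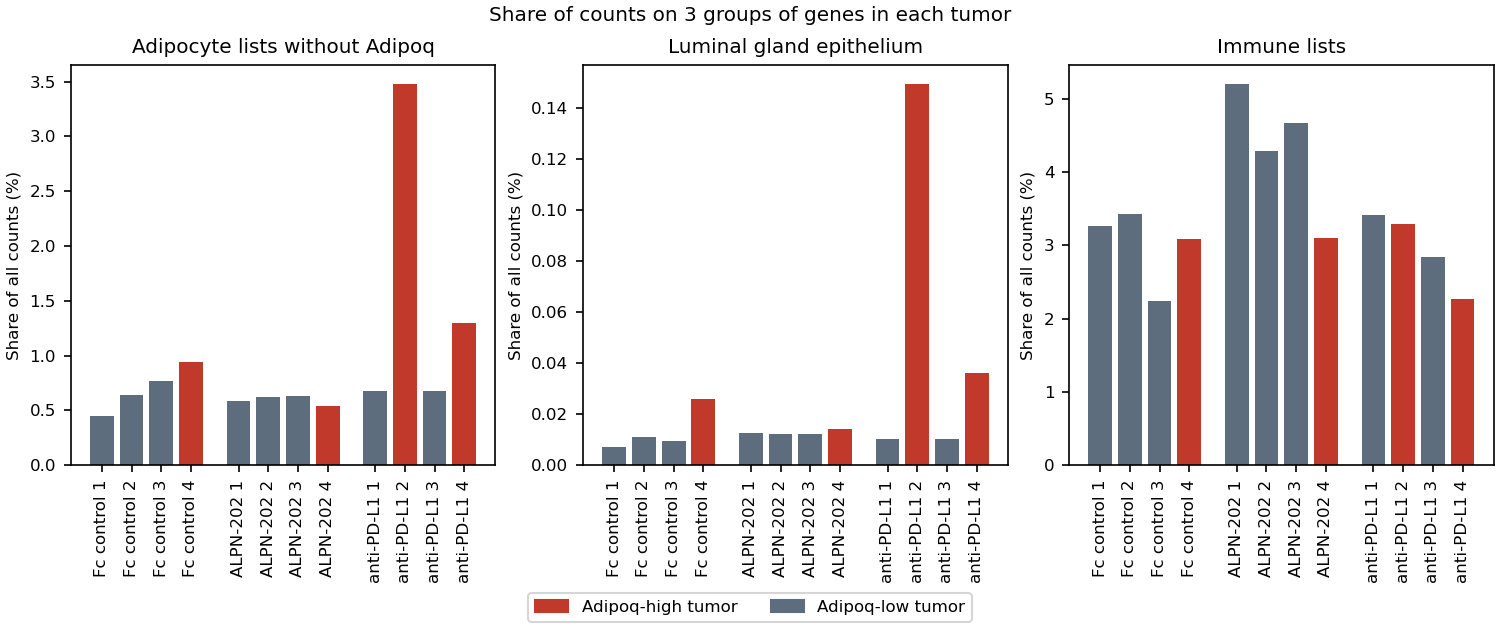
Share of all counts, in percent, on the adipocyte lists without Adipoq, the luminal gland list and the immune lists, 1 bar per tumor, red for Adipoq-high. Anti-PD-L1 replicate 2 is the tallest bar of the first pair of panels (3.48% and 0.149%), ALPN-202 replicate 4 lies within the grey bars of the first panel (0.540%), and the immune bars show no such order.

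Keratins and other genes of gland epithelium were also higher in all 4 tumors. Krt19 was at 29.1, 32.6, 273 and 51.8 CPM against 0.138 to 0.765 (median 0.517), a log2 difference of 6.86 ± 0.52. Of 29 genes listed for luminal gland epithelium, 23 were tested and 14 were counted higher (0.94% over all genes tested). The median of the 23 was 2.27 (2.76 without ALPN-202 replicate 4). Only 12 of the 23 passed the filter in Adipoq-low tumors alone, and their median was 1.01. Cdh1 (E-cadherin), Esr1 (the estrogen receptor) and Kit (a receptor of luminal progenitors), not counted, were lower in ALPN-202 replicate 4 than in every Adipoq-low tumor, at 6.86 against 11.5 to 21.5 CPM, 2.94 against 3.17 to 8.67 and 5.55 against 7.35 to 23.6. The defining markers Krt8, Krt18 and Epcam (3.92 ± 0.83) were among the 14. Elf5, a regulator of luminal progenitor and alveolar cells, was not tested, with 14, 1, 97 and 17 counts in the Adipoq-high tumors and at most 2 in any Adipoq-low tumor. Cldn7, a tight junction gene, had no count in the 8 Adipoq-low tumors and was at 1.41, 1.63, 6.62 and 1.69 CPM in the Adipoq-high tumors, at least 70.0-fold higher on their mean than a floor of 3 counts over the 8 tumors. With that gene at its bound the list median stayed at 2.27.

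Wfdc2, a secreted protease inhibitor of ducts, had the largest log2 difference of the genes tested (8.16 ± 0.75), at 4.54, 28.1, 55.9 and 9.33 CPM against 0 to 0.328. Dmbt1, a mucin-like glycoprotein of epithelial surfaces, did not follow the order of the other genes: it was highest in anti-PD-L1 replicate 4 (97.4 CPM), followed by replicate 2 of that arm (32.3), Fc control replicate 4 (19.2) and ALPN-202 replicate 4 (2.29), against at most 0.516 in Adipoq-low tumors.

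Among milk and secretory genes, 3 of 6 tested were counted higher (0.94% over all genes tested), namely Csn3, Expi and Ltf. Only 3 of the 6 passed the filter in Adipoq-low tumors alone, with a median of 0.31, and Csn3, Expi and Ltf were not among them. These entered the test through the tumors in which they were high. Several milk proteins of the lactating gland were at or near 0. Csn2 and Wap had no count in any tumor, which allows up to 3 counts in each library, and Lalba had 21 and 11 counts in anti-PD-L1 replicates 2 and 4 and at most 2 elsewhere. Csn3, κ-casein, was counted higher at 2.82, 2.94, 47.0 and 8.36 CPM against 0 to 0.669. Mfge8 and Xdh, milk fat globule genes also expressed by other cells, had log2 differences of 0.31 ± 0.16 and -0.17 ± 0.36. Prlr, the prolactin receptor, and Oxtr, the oxytocin receptor of myoepithelium, are given here after their values were seen. Prlr was at 8.47, 3.59, 99.9 and 33.0 CPM against 0.138 to 1.12, and Oxtr had 29, 3, 485 and 134 counts against 17 in all Adipoq-low tumors together.

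No gene of the basal, keratinocyte or intestinal lists was counted in either direction. Krt14 and Krt5, of basal and myoepithelial cells, overlapped between the classes (5.69 to 34.3 CPM against 5.09 to 83.9, and 1.96 to 27.6 against 0.798 to 102), with 15 genes of their list tested. Of 12 genes of differentiated keratinocytes 1 was above 0, with a median of -1.52, and Krt1, Krt10 and Lor had log2 differences of -2.81 ± 1.48, -1.30 ± 0.97 and -1.79 ± 1.31. Krt10 was at 56.6, 27.8, 7.72 and 5.16 CPM against 4.59 to 215, a spread wider than the distance between the classes. Cdx2, which defines intestinal epithelium, had no count in any tumor, Vil1 had at most 3 and Krt20 at most 10, and both tested genes of that list were above 0 (median 0.83), although MC38 is a colon carcinoma line.

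Skeletal muscle genes were not higher in Adipoq-high tumors. Acta1, skeletal actin, was at 72.0 and 76.6 CPM in Fc control replicate 4 and anti-PD-L1 replicate 2, within the range of Adipoq-low tumors (42.5 to 224), and at 2.29 and 0.800 in ALPN-202 replicate 4 and anti-PD-L1 replicate 4, below all of them. Of 16 muscle genes tested none had a positive fitted difference, and their median was -1.08 (-0.52 without ALPN-202 replicate 4). The 4 Adipoq-high tumors were thus split 2 and 2 by Acta1, across the arms.

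Among 21 genes of adipose stroma and preadipocytes, none was counted higher (median 0.11), with Dcn at 462, 622, 503 and 558 CPM against 302 to 791 and Cd34 at a log2 difference of 0.02 ± 0.16. The collagens and Sparc were likewise not counted (Col3a1 -0.11 ± 0.32, Sparc -0.01 ± 0.17). In the fit, endothelial genes were mostly higher, with 18 of 20 above 0 and a median of 0.35, or 0.83 without ALPN-202 replicate 4, against 0.03 and -0.005 over all genes. As a share of counts, they exceeded the Adipoq-low tumors of the arm in Fc control replicate 4 (0.0619%) and anti-PD-L1 replicate 2 (0.125%). Anti-PD-L1 replicate 4 (0.0547%) lay between the Adipoq-low tumors of its arm (0.0453% and 0.0550%), and ALPN-202 replicate 4 (0.0268%) lay below those of its arm. Aqp1 and Pecam1 were at 278 and 162 CPM in anti-PD-L1 replicate 2 and at 55.8 and 43.8 in ALPN-202 replicate 4, against 60.1 to 109 and 43.6 to 167 in Adipoq-low tumors. The claudin of vessels, Cldn5, was the only endothelial gene counted higher (1.12 ± 0.32).

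**Figure D3:**
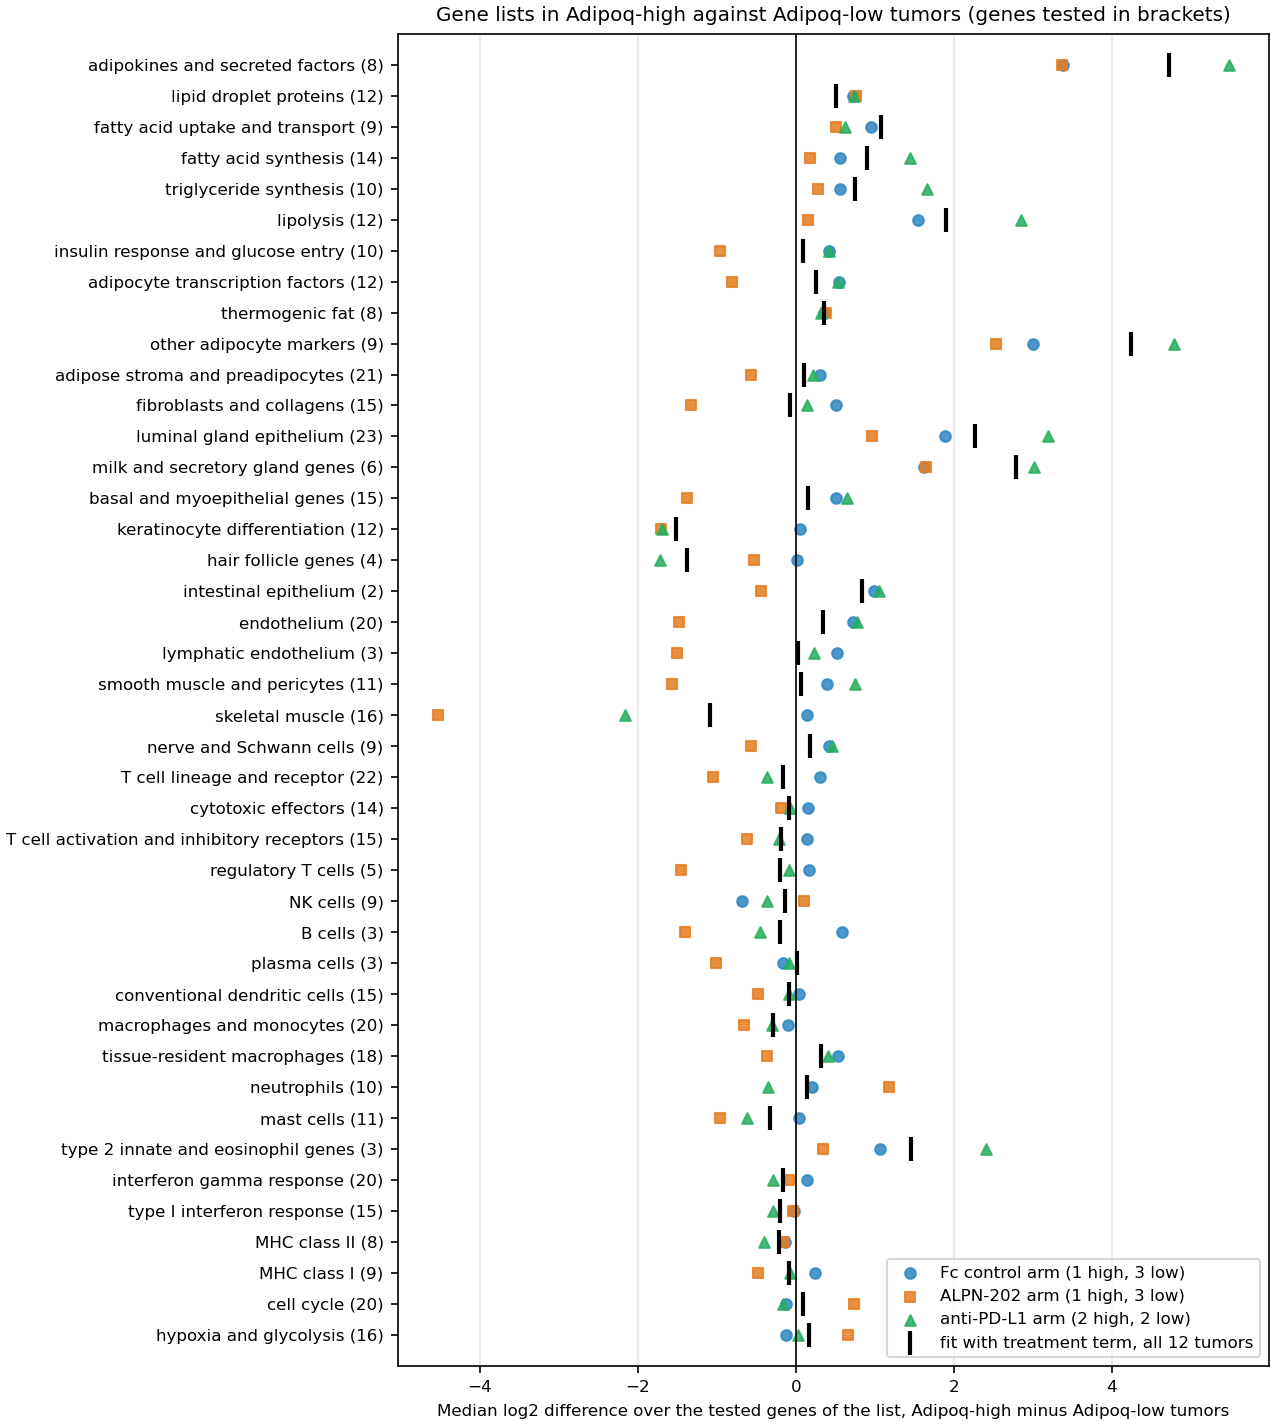
Median log2 difference of Adipoq-high minus Adipoq-low tumors over the tested genes of each of 42 lists, within each arm (coloured points) and in the fit of all 12 tumors (black bars). Adipokines, other adipocyte markers, luminal gland and milk lists lie to the right of 0 in all arms, and most immune lists lie near 0, with the ALPN-202 arm, which rests on the library with the length trend, farthest to the left for most of those of T cells.

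Few immune genes were counted, and most lay slightly below 0. Of 235 genes in immune lists, 197 were tested, 5 were counted higher, a larger share than the 133 of 14142 over all genes, and none lower. Of the 197, 57 were above 0, against 7654 of all 14142, with a median log2 difference of -0.15 (-0.07 without ALPN-202 replicate 4). The immune lists took 3.08%, 3.10%, 3.29% and 2.27% of counts in the Adipoq-high tumors, within the 2.24% to 5.2% of the Adipoq-low tumors of all arms. Within arms, ALPN-202 replicate 4 lay below the other 3 tumors (4.30% to 5.2%), anti-PD-L1 replicate 4 below both Adipoq-low tumors (2.84% and 3.42%), and the other pair within the range of theirs. Anti-PD-L1 replicate 2, with the strongest fat signal, was at 0.96 times the Adipoq-low median.

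T cell genes overlapped. Cd3g was at 7.06, 7.84, 10.4 and 2.31 CPM in Fc control replicate 4, ALPN-202 replicate 4 and anti-PD-L1 replicates 2 and 4, against 2.84 to 27.2 (median 6.83), and Cd8a at 11.1, 24.5, 14.0 and 4.09 against 5.50 to 57.9 (median 15.1). The log2 differences were -0.03 ± 0.49 and -0.38 ± 0.37. Gzmb, the killer protease granzyme B, was at 23.9, 83.6, 35.1 and 16.1 CPM against 15 to 167. In the ALPN-202 arm the Adipoq-high tumor was the lowest for Cd8a, Cd3g and Gzmb, where the other 3 tumors were at 34.0 to 57.9, 19.2 to 27.2 and 88.9 to 167 CPM. Cd3d and Ifng went the other way, at 47.0 and 23.5 CPM in that tumor, the highest of the 12 for both. The medians of the T cell lineage, cytotoxic effector and activation lists were -0.17, -0.09 and -0.19, and none of their tested genes was counted in either direction.

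Myeloid and antigen presentation genes were similar. C1qa, complement of macrophages, was at 760, 916, 848 and 374 CPM against 487 to 1350, and Cd74, the chaperone of MHC class II, at 1862, 1807, 1972 and 775 against 853 to 4654. Anti-PD-L1 replicate 4 was the lowest of the 12 tumors for both. Macrophage and monocyte genes had a median of -0.29, with 1 of 20 above 0, and tissue-resident macrophage genes, which also mark the macrophages of fat, a median of 0.33, with 14 of 18 above 0. Among the latter Mgl2, a lectin of macrophages and dendritic cells, was the only gene counted higher (4.64, 5.55, 14.1 and 3.73 CPM, 1.18 ± 0.45). The B cell marker Ms4a1 had 6 counts in the 4 Adipoq-high and 19 in the 8 Adipoq-low tumors.

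Among genes of the interferon gamma response, only Ido1 was counted higher out of 20 tested. Ido1, which degrades tryptophan and is made by immune and epithelial cells, was at 2.62 CPM in Fc control replicate 4 against 0.602 to 1.04 in its arm, at 10.1 in ALPN-202 replicate 4 against 1.70 to 2.61, and at 47.0 and 21.9 in anti-PD-L1 replicates 2 and 4 against 1.59 and 1.86. Its log2 difference was 3.01 ± 0.47. Gbp2, Cxcl10 and Irf1, induced by the same cytokine, were at -0.23 ± 0.22, -0.17 ± 0.22 and 0.04 ± 0.19. The other 3 immune-list genes counted higher were Areg, Lcn2 and Ltf, which also stand in the gland lists. Areg, a growth factor of ducts and of type 2 immune cells, was at 8.57, 5.88, 55.3 and 6.76 CPM against 0 to 0.550, while Il5, Il13 and Epx, which mark type 2 cells and eosinophils, had at most 6 counts in all tumors of a class together. The mature neutrophil genes Ngp and Camp, beside Ltf and Lcn2, likewise had at most 2 counts in a class.

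The 5 genes counted lower were Crct1 (-2.83 ± 1.18) of cornified skin, the extracellular matrix gene Tnn (-2.31 ± 0.74), Aqp3 (-1.90 ± 0.97), a channel of keratinocytes, Tespa1 (-1.30 ± 0.31) of lymphocytes and Fcrl5 (-1.26 ± 0.61), a receptor of B cells. Tnn was at 5.04, 0.327, 6.92 and 2.58 CPM against 5.18 to 38.8.

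Treatment was then compared with the class as a covariate, a use of the labels that the division did not fix, although the class was read from tumors taken after dosing. With all 12 tumors, edgeR's quasi-likelihood test called 0 genes (0%) between ALPN-202 and Fc control after Benjamini-Hochberg adjustment over 14142 genes. Before adjustment, 950 genes passed 0.05 upward and 277 downward, the smallest adjusted p was 0.324, and DESeq2 on the same design called 182 higher and 32 lower. Without the class term, and with the length trend removed by offsets, edgeR called 0 as well. The contrast of anti-PD-L1 with Fc control held 0 calls by edgeR (0%) and 0 by DESeq2, and before adjustment 94 genes passed 0.05 upward and 115 downward.

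In the 8 Adipoq-low tumors alone (3 Fc control, 3 ALPN-202 and 2 anti-PD-L1), ALPN-202 differed from Fc control in 359 higher (2.51%) and 21 lower (0.147%) of 14321 genes. T cell genes rose: 16 of 23 tested were called higher, among them Cd3g (log2 2.42 ± 0.36, adjusted p = 0.0323 by edgeR), Trac (2.11 ± 0.37, 0.0355) and Cd8a (2.07 ± 0.38, 0.0385), and 42 of 199 immune-list genes were called higher and none lower. Gzmb (2.02 ± 0.40, adjusted p = 0.0458 by edgeR) and Il2ra (1.23 ± 0.26, 0.0488) also rose, and Cd3d (1.44 ± 0.48, 0.149), Icos (1.85 ± 0.43, 0.0616) and Ifng (1.03 ± 0.53, 0.265) did not pass the test. Each ALPN-202 tumor was above each Fc control tumor for Cd8a, at 34.0 to 57.9 against 5.50 to 15.4 CPM. ALPN-202 replicate 4, left out here, had Il2ra (7.51 CPM) and Icos (4.57) within the Fc control range (6.18 to 8.43 and 3.70 to 12.1). Its Cd8a and Gzmb were above every Fc control tumor (24.5 and 83.6 CPM against at most 15.4 and 41.8). The paper describes 1 ALPN-202 mouse, replicate not named, without elevated T cell activation markers, and speculates about an incomplete dose, which was not tested. Leaving out all Adipoq-high tumors also leaves out ALPN-202 replicate 4 with its length trend, and without that tumor alone the 11 others gave 178 higher and 21 lower. Without Fc control replicate 1 as well, the other library with the trend, the Adipoq-low tumors gave 1165 higher and 222 lower, and 102 of the 199 immune-list genes were called higher. Against the fit of all 8 Adipoq-low tumors, calls higher went from 359 to 1165 over all genes and from 42 to 102 over the immune lists. Residual degrees of freedom fell from 5 to 4.

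The regulatory T cell list moved most among the immune lists in the ALPN-202 arm, from 0.83 with the class term to 1.35 in the Adipoq-low tumors. For ALPN-202 against Fc control, the T cell lineage list was at a median log2 difference of 1.78 with the class term, 1.78 without it and 2.07 in the Adipoq-low tumors alone, and the cytotoxic list at 1.37, 1.4 and 1.42. For anti-PD-L1 against Fc control, where 2 of 4 and 1 of 4 tumors were Adipoq-high, the luminal gland list was at 2.21 without the class term, 1.02 with it and 0.10 in Adipoq-low tumors, and the adipocyte lists at 1.05, 0.74 and 0.02. The immune lists together were at 0.00, 0.04 and 0.10. The low adipocyte and gland medians in Adipoq-low tumors were no separate finding, since the division left out the tumors high in Adipoq. That fit also covered fewer genes, 15 of 23 for the luminal gland list and 90 of 103 for the adipocyte lists. Whether the list medians differed between fits was not tested.

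**Figure D4:**
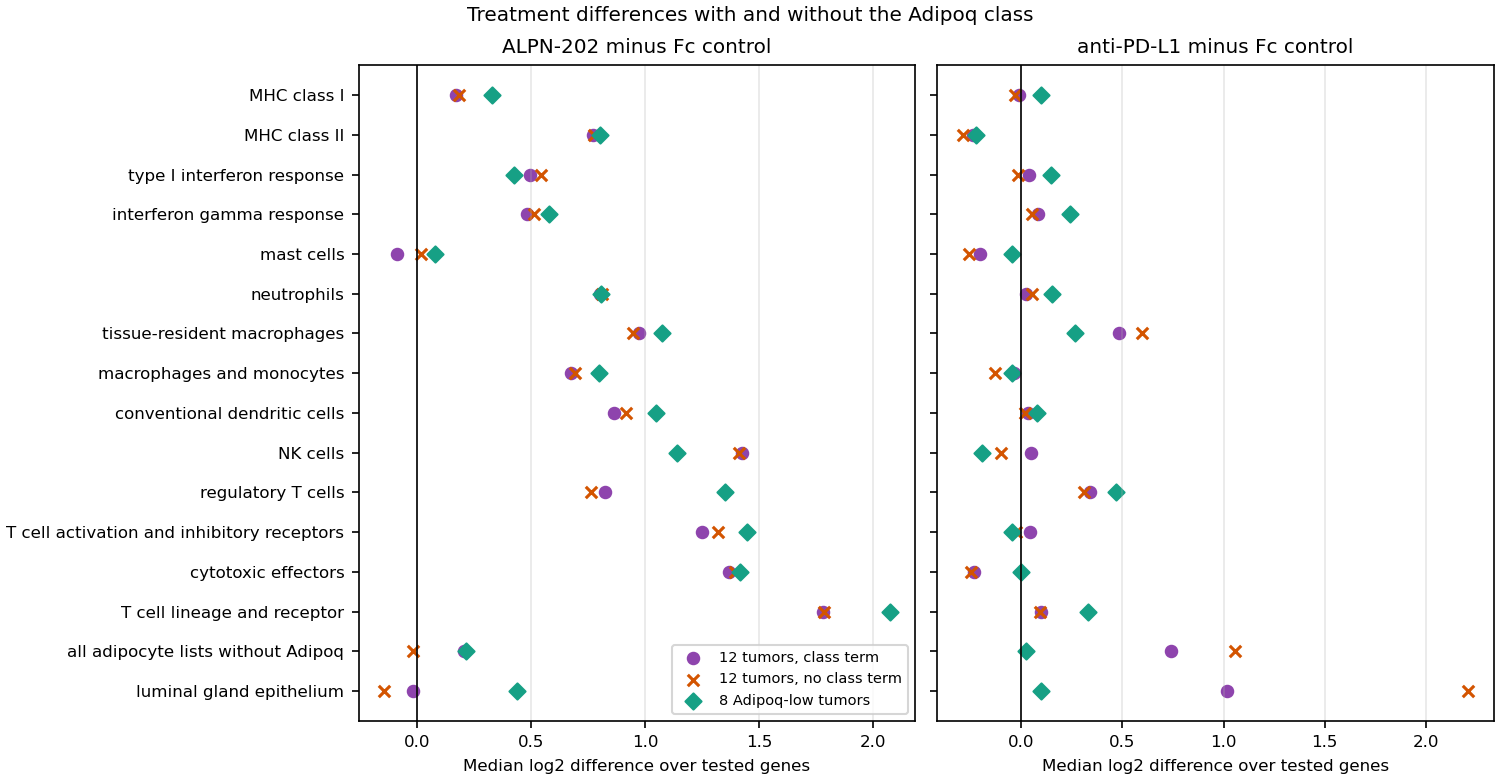
Median log2 difference over tested genes of 14 immune lists, the adipocyte lists and the luminal gland list, for ALPN-202 (left) and anti-PD-L1 (right) minus Fc control, with the class term, without it and in the 8 Adipoq-low tumors. Adipocyte and gland medians of anti-PD-L1 lie at 1.05 and 2.21 without the class term and at 0.02 and 0.10 in Adipoq-low tumors, and T cell medians of ALPN-202 lie between 1.78 and 2.07. Medians in Adipoq-low tumors leave out the tumors high in Adipoq by design and, for the adipocyte and gland lists, cover fewer genes.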

How the data were processed

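Raw counts per gene, as deposited by the authors, came from single reads of full-length amplified cDNA (SMART-Seq) of 12 tumors on build NCBIM37, with HTSeq 0.4.1 in the submitters' processing notes. Those notes name TopHat 1.4.1 where the methods name STAR, so the aligner is not settled. TPM values, as deposited by the authors, were used for the Adipoq division. Repeated gene names (226 lines) were kept apart and 25 names had turned into dates. Gene lists, members and the division were chosen with earlier results of these data known, and 2 older gene names were matched after the files were read.

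Counts were filtered (filterByExpr, minimum count 10, minimum total 15; 14142 genes), TMM-normalized and fitted with edgeR 4.0.16 (R 4.3.3) on treatment and class, with 8 residual degrees of freedom. SEs come from the quasi-likelihood F statistic. Medians within arms are of log2 CPM (prior count 2). Treatment contrasts were adjusted by Benjamini-Hochberg (threshold 0.05). P-values set a treatment difference against the spread between tumors left after arm and class, pooled over the arms. The fit of the 8 Adipoq-low tumors had no class term and 5 residual degrees of freedom. The SEs hold the spread between tumors as well as counting error, and floors cover counting error only. The fit was tested on simulated data. Named genes were all adipocyte-list members, the 4 most abundant tested members of other lists and defining members, the 15 largest counted higher and the 5 counted lower (predicted genes left out) and Cd3d, Cd8a, Gzmb, Ifng, Icos and Il2ra. Other genes were chosen after their values were seen, namely the 5 genes of immune lists counted higher, Cldn5, Prlr, Oxtr, Krt5, Cdh1, Esr1, Kit, Expi, Il5, Il13, Ngp and Camp. Alternatives covered normalization, filters, limma-voom 3.58.1, DESeq2 1.42.0, a length offset, the replicate block, other Adipoq limits, TPM and each tumor left out. Figures used Matplotlib 3.10.9.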

Additional observations from a re-analysis of the deposited data

Results flagged for a closer look

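List levels (mean log2 CPM over the tested genes of a list) were compared within the arms of 4 tumors, and 9 of 129 levels had 1 tumor far from the other 3 by Dixon's ratio. Chance alone sets apart about 1 in 20 groups. Above the mean of the other 3 tumors of its arm, Fc control replicate 4 was 2.92 higher for adipokines, a list that holds Adipoq, by which this tumor was chosen, 0.935 for fatty acid uptake and 2.24 for luminal gland epithelium. ALPN-202 replicate 4 was 1.05 higher for lipolysis and 1.43 for milk and secretory genes, with a difference of -0.336 for nerve and Schwann cells. Anti-PD-L1 replicate 2 was 1.43 higher for endothelium. Among Adipoq-low tumors, ALPN-202 replicate 2 was 4.6 higher for keratinocyte differentiation, and Fc control replicate 3 differed by -0.497 for MHC class I.

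For 12 lists, the Adipoq-high tumor of the ALPN-202 arm lay on the opposite side of its arm from that of the Fc control arm, and for some also from those of the anti-PD-L1 arm. The difference was not tested. The ALPN-202 arm rests on replicate 4, the library with the length trend, whose part in these values was not tested. The mean log2 level of Adipoq-high minus Adipoq-low tumors in the Fc control and ALPN-202 arms was 0.783 and -0.778 for insulin response (anti-PD-L1 arm 1.18), 0.618 and -0.73 for adipocyte transcription factors (anti-PD-L1 arm 1), 0.307 and -0.673 for adipose stroma, and 0.484 and -0.986 for fibroblasts. It was 0.99 and -0.447 for intestinal epithelium, 0.737 and -1.37 for endothelium, and 0.582 and -0.336 for nerve (anti-PD-L1 arm 0.842). For immune lists it was 0.377 and -1.49 for regulatory T cells, 0.584 and -0.403 for tissue-resident macrophages, and 0.217 and -0.312 for MHC class I. For cell cycle it was -0.189 and 0.589 (anti-PD-L1 arm -0.178), and for hypoxia and glycolysis -0.219 and 0.809.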

How the results depend on the processing

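The depth and the number of Adipoq-high tumors (4, of which 1 in each of 2 arms) limit these counts. Of 503 genes followed, 73 were counted higher or lower, a part of the 133 and 5 counted, and 0 of the 73 changed direction under any alternative. Genes were counted only where the classes did not overlap within any arm, so a change of direction was unlikely from the start. Of 12405 values of the followed genes under alternatives, 1424 moved by more than their SE. The 133 genes counted higher became 261 with no filter on low counts, 30 with 10 counts in every tumor, 571 with an Adipoq limit of 100 TPM, 82 with differences of log2(TPM + 1), 437 with overlap within arms allowed, 456 without Fc control replicate 1 and ALPN-202 replicate 4 (an alternative chosen after seeing the data), and 123 (without anti-PD-L1 replicate 2) to 434 (without ALPN-202 replicate 4) with 1 tumor left out. A limit of 10 TPM gave the same division. The 5 genes counted lower became 3 with RLE and 3 with upper quartile normalization, 29 with no filter, 0 with 10 counts in every tumor, 81 at 100 TPM, 1 on log2(TPM + 1), 2 at a log2 difference of 2, 87 with overlap allowed, 42 without those 2 libraries, and 6 to 65 with 1 tumor left out. The median of the adipocyte lists, 0.80, was 1.00 with no filter, 0.41 with the strict filter, 1.60 at 100 TPM, 0.31 on log2(TPM + 1), 1.26 without the 2 libraries and 0.46 to 1.28 with 1 tumor left out. The median of the immune lists, -0.15, was -0.39 on log2(TPM + 1) and ranged from -0.29 to -0.02 with 1 tumor left out.

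The replicate numbers did not pair the tumors, since 1 of 12 libraries correlated best with its own number (lowest correlation -0.48). With the replicate block, 158 genes were counted higher and 9 lower, and the medians were 1.80 for the adipocyte lists and 0.40 for the immune lists, a change of sign. Replicate 4 was Adipoq-high in every arm, and replicates 1 and 3 were Adipoq-low in every arm. The class difference with the block therefore rested on anti-PD-L1 replicate 2 alone. The fit with the block gave 0 calls for either treatment.

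For ALPN-202 against Fc control, 0 genes became 182 higher and 32 lower with DESeq2, 359 and 21 without the Adipoq-high tumors, 584 and 154 without Fc control replicate 1 and ALPN-202 replicate 4, 1165 and 222 without Fc control replicate 1 and the Adipoq-high tumors (both chosen after seeing the data), and 0 to 178 higher and 0 to 21 lower with 1 tumor left out, the highest without ALPN-202 replicate 4. For anti-PD-L1 the count was 0 under every alternative run. The causes of these changes were not tested.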
